A study of Mus musculus with 16 samples.

Results

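The subject is the type 1 deiodinase gene Dio1 together with 6 other genes of thyroid hormone action, Thra, Thrb, Slc16a10, Ttr, Hr and Klf9, in the livers of 7-day-old mice of 4 genotypes. A gene was measured by the probe sets annotated with its symbol and no other, and where there were several, by the one with the highest mean over the 16 arrays. Of the 7 genes, 6 had such a probe set, out of 18820 genes on the array. Thra, which encodes a thyroid hormone receptor, was represented by 2 probe sets that each carry a further symbol, and no value is given for it. Dio1 was chosen because its level differed between these genotypes, so its levels are given as a description with no test. The other 5 measured genes were tested.

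The thyroid gland secretes mainly thyroxine, a prohormone that becomes active triiodothyronine when a deiodinase removes an iodine from its outer ring. Dio1 is the main deiodinase of liver and kidney. It is a selenoprotein that can also remove the inner ring iodine and thereby clear the hormone, and its own gene is a classical target of triiodothyronine in mouse liver. Carrier proteins bring the hormone to the hepatocyte and membrane transporters take it up. Nuclear receptors paired with retinoid X receptors then bind target genes, which they repress with corepressors in the absence of hormone and activate with coactivators in its presence.

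Each array held whole-liver RNA from 1 male mouse, 4 mice to a genotype, on a mixed C57/BL6 and SV129Ola background. Mice labelled RIPK3 triple KO lacked RIPK3 in the whole body and, in liver parenchymal cells, the adaptor TRAF2 and the protease caspase-8. Those labelled IKKβ triple KO lacked TRAF2, caspase-8 and the kinase IKKβ in parenchymal cells. Those labelled double KO lacked TRAF2 and caspase-8 in parenchymal cells and kept RIPK3 and IKKβ. The alfp-Cre transgene drove the deletions in parenchymal cells, so blood, Kupffer, stellate and endothelial cells in the same RNA were not its targets. WT mice were littermates without Cre that carried the floxed alleles. The comparison of each triple KO with the double KO asked what RIPK3, which executes necroptosis, or IKKβ, which activates NF-κB, contributed in livers without TRAF2 and caspase-8. Comparisons that share a genotype share its 4 arrays.

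The array values are log2 signals, on which a difference of 1 is a doubling, and they are not comparable between genes. Arrays of one genotype correlated with each other at 0.981 to 0.991. WT replicate 1 stood apart on the second principal component, at −50.5 against −22.31 to 27.04 for the other 15 arrays. Of the targeted genes, Casp8 was lower in all 12 arrays labelled as lacking TRAF2 and caspase-8 than in any WT array. Ripk3 signal was 4.07 to 4.40 in RIPK3 triple KO arrays and 5.62 to 6.42 in the others. Ikbkb, the gene of IKKβ, fell by 0.69 in IKKβ triple KO against double KO (limma, adjusted p = 0.00137). Traf2 went against the labels, at 7.18 to 7.53 in RIPK3 triple KO, 6.87 to 6.92 in IKKβ triple KO and 7.07 to 7.44 in double KO arrays, against 6.21 to 6.40 in WT arrays. Where its probe set lies relative to the deleted part is not given in the sources used here, so the genotype names below are those of the labels. Positions read from the array names put WT and IKKβ triple KO in one plate column and RIPK3 triple KO and double KO in another, and each genotype in its own set of wells. Plate position and genotype therefore cannot be told apart. The name of double KO replicate 4 alone has another prefix.

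The stretch of 250 bases before the transcription start, from RefSeq on mouse build GRCm38.p6 and written on the gene's own strand, is shown for Dio1, whose level differed most, for the receptor gene Thrb, and for Klf9, another hormone target and the tested gene nearest to the threshold. The search was for AGGTCA, the half-site that thyroid hormone receptors bind, and for the GC box GGGCGG, each on both strands. A match to one cannot overlap a match to the other. Capitals mark AGGTCA. The windows are chr4:107307169-107307418 on the minus strand for Dio1, chr14:17660710-17660959 on the plus strand for Thrb and chr19:23140976-23141225 on the plus strand for Klf9.
Dio1: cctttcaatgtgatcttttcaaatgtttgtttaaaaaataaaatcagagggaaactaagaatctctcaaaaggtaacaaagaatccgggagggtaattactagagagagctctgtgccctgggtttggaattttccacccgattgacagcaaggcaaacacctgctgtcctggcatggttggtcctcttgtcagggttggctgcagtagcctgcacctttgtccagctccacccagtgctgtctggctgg
Thrb: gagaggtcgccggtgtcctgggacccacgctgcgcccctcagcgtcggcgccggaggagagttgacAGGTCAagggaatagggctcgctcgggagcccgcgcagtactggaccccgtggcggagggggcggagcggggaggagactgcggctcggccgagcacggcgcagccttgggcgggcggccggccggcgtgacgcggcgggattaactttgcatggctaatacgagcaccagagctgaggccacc
Klf9: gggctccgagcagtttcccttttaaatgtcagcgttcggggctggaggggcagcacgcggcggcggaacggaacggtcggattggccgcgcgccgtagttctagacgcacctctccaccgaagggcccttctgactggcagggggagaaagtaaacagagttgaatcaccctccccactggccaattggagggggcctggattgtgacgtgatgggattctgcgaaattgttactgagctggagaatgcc
The Dio1 window had a GC content of 46.8% and the Klf9 window one of 59.6%, and neither held either motif. The Thrb window had a GC content of 71.6%, 1 AGGTCA that begins 184 bases before the start, and 3 GC boxes, a pair of which overlap. Thrb has a second window with neither motif. The Slc16a10 window, the only other one examined, held 3 GC boxes and no AGGTCA. Ttr was left out of the search, and no window was at hand for Hr or Thra. The search thus covered 4 of the 7 genes. Over 32851 promoter windows of this length, 14% held AGGTCA and 32.7% held GGGCGG, so a single AGGTCA is common. A missing match says only that these letters are not in these 250 bases.

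Dio1 signal was highest in RIPK3 triple KO livers, intermediate in IKKβ triple KO and WT livers and lowest in double KO livers. It was 9.47, 9.57, 9.84 and 9.07 in RIPK3 triple KO livers, 7.48, 7.96, 7.74 and 7.81 in IKKβ triple KO livers, 7.09, 6.13, 5.54 and 6.04 in double KO livers, and 8.87, 7.06, 8.09 and 7.85 in WT livers. All 4 RIPK3 triple KO livers lay above every other liver, the nearest being WT replicate 1. Of the double KO livers, 3 lay below every liver of the other genotypes, and replicate 1, at 7.09, lay just above WT replicate 2, at 7.06. The IKKβ triple KO livers all fell within the WT range. The means were 9.49 ± 0.32 in RIPK3 triple KO, 7.75 ± 0.20 in IKKβ triple KO, 6.20 ± 0.65 in double KO and 7.97 ± 0.75 in WT livers (SD, n = 4 each). The range of the 4 means was 3.29, against a pooled SD within genotypes of 0.53.

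Against double KO, Dio1 was higher by 3.29 ± 0.34 (SE) in RIPK3 triple KO, a 9.75-fold difference with a 95% interval of 5.9 to 16.1-fold, and by 1.55 ± 0.34 in IKKβ triple KO, a 2.92-fold difference. Neither triple KO overlapped double KO. The difference in IKKβ triple KO minus RIPK3 triple KO was −1.74 ± 0.34, again without overlap. Against WT, the Dio1 difference was 1.52 ± 0.34 in RIPK3 triple KO, without overlap, −0.22 ± 0.34 in IKKβ triple KO and −1.77 ± 0.34 in double KO. IKKβ triple KO and WT were neighbours in the order of levels, and their difference was smaller than the pooled SD within genotypes. Without WT replicate 1, the liver that stood apart, that difference turned to 0.08, RIPK3 triple KO minus WT was 1.82 and double KO minus WT was −1.47. The other 5 Dio1 differences kept their sign whichever array was left out, and RIPK3 triple KO minus double KO then lay between 3.07 and 3.58. Over all probe sets, groups did not overlap at 6.03% in RIPK3 triple KO against double KO, 6.22% in IKKβ triple KO against double KO, 7.7% in RIPK3 triple KO against WT and 7.9% in IKKβ triple KO against RIPK3 triple KO. Nothing is read from these shares for Dio1, which was chosen for this pattern. In whole liver, fewer cells of a type and less RNA per cell cannot be told apart. The highest and lowest Dio1 genotypes, RIPK3 triple KO and double KO, shared a plate column and differed in plate rows.

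**Figure D1:**
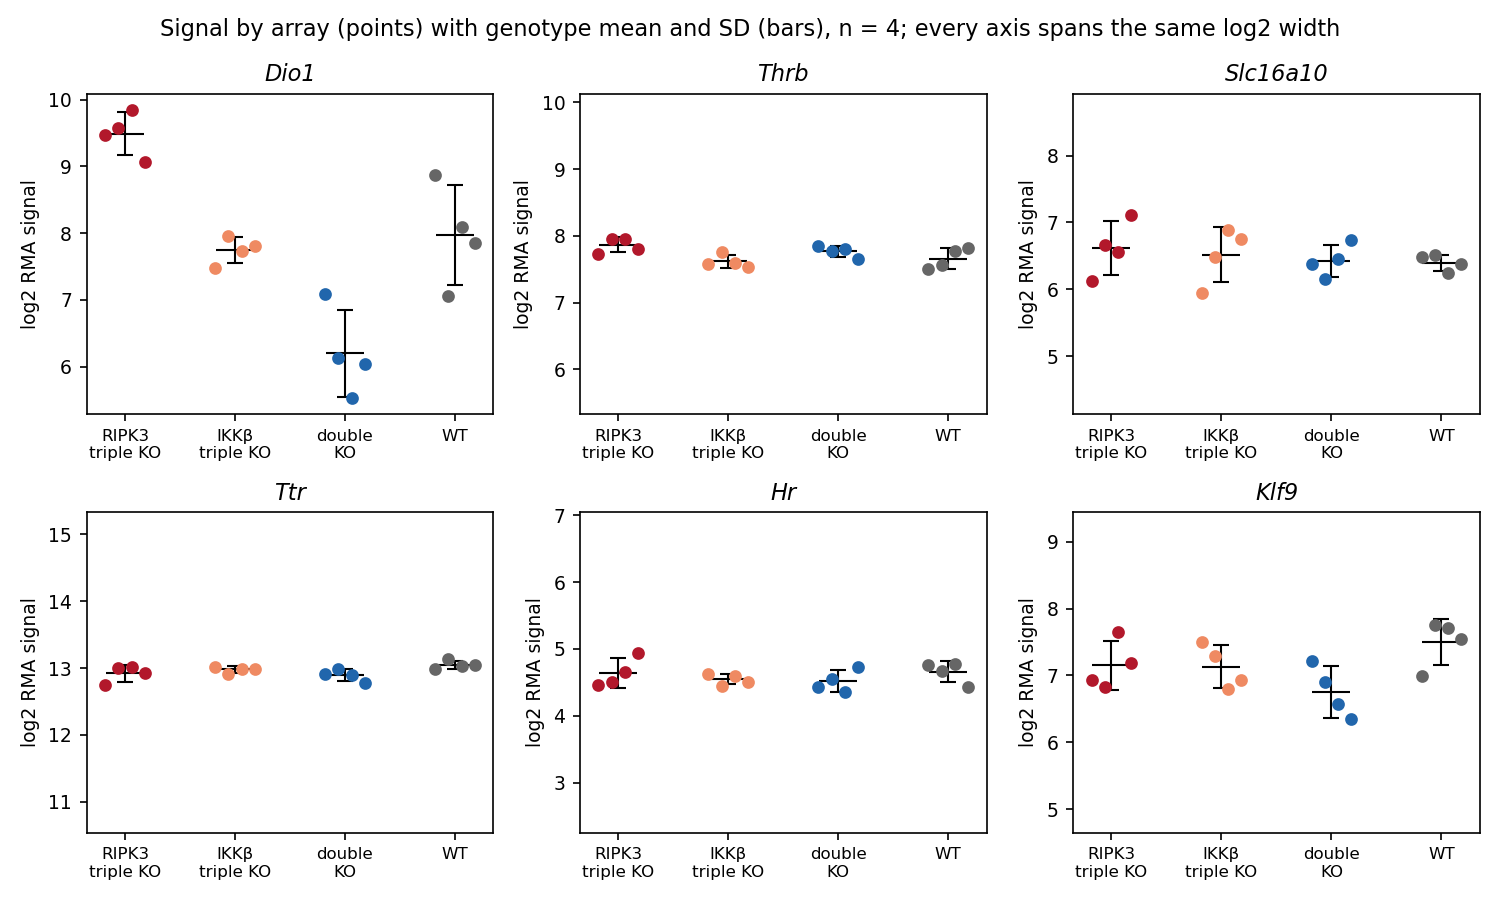
Log2 signal (vertical axis) of Dio1, Thrb, Slc16a10, Ttr, Hr and Klf9 in each liver, grouped by genotype along the horizontal axis; points are arrays and bars are means with SD (n = 4). The Dio1 mean is 9.49 in RIPK3 triple KO and 6.20 in double KO livers, while for the other 5 genes all pairs of genotypes overlap except double KO and WT for Ttr.

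Among cell type markers, the hepatocyte and cholangiocyte lists also differed between some genotypes. The mean signal of the hepatocyte markers, 9 of 10 listed genes measured, was 11.43 to 11.87 in RIPK3 triple KO, 11.30 to 11.53 in IKKβ triple KO, 10.95 to 11.38 in double KO and 11.38 to 11.65 in WT arrays. The difference of the list means was 0.39 in RIPK3 triple KO minus double KO, without overlap, with a median over the genes of 0.11, and 1 of the 9 genes, Apoc3, rose, beside 0.264% of all probe sets called. It was −0.35 in double KO minus WT, without overlap, with a median of −0.04, and 2 of the 9 genes, Apoc3 and Tdo2, fell, beside 2.25% called and 0.807% called lower. Tdo2 alone differed by −2.01 there, and the mean over the other 8 genes was −0.14 in double KO minus WT and 0.22 in RIPK3 triple KO minus double KO. Apoc3 also rose by 0.89 in IKKβ triple KO against double KO (limma, adjusted p = 0.0136). It was the 1 gene of the 9 called there, beside 0.627% of all probe sets, and the list means overlapped. These genes are named after their values were seen. Neutrophil and myeloid precursor markers, 9 of 9 measured, ranged over 6.74 to 8.74 in RIPK3 triple KO, 8.43 to 9.51 in IKKβ triple KO, 8.13 to 9.53 in double KO and 8.53 to 10.02 in WT arrays. Erythroid markers, 6 of 7 measured, ranged over 5.80 to 7.95 in RIPK3 triple KO, 6.49 to 8.30 in IKKβ triple KO, 6.26 to 7.98 in double KO and 7.19 to 8.24 in WT arrays. For both lists 0 genes were called and the list means overlapped in all 6 comparisons, beside 0.0197% to 2.38% of all probe sets called. The same held for Kupffer and endothelial cell markers, 6 of 6 measured for each. Stellate cell markers, 7 of 7 measured, also had 0 calls. Their list means did not overlap in IKKβ triple KO minus double KO, at −0.21, and minus RIPK3 triple KO, at −0.20. Cholangiocyte markers, 4 of 5 measured, ranged over 5.89 to 6.17 in RIPK3 triple KO, 5.05 to 5.79 in IKKβ triple KO, 5.77 to 6.01 in double KO and 5.08 to 5.53 in WT arrays. The cholangiocyte list means were higher by 0.66 in RIPK3 triple KO and by 0.52 in double KO than in WT, without overlap. Of the 4 genes, 2, Epcam and Sox9, rose in each of these comparisons, beside 2.38% and 2.25% of all probe sets called. Called higher were 527 and 513 of 35556 probe sets. The other 2 did not pass. Krt7 was at 0.34 and Krt19 at 0.50 in RIPK3 triple KO minus WT, and at 0.18 and −0.19 in double KO minus WT. Sox9 also fell by 1.12 in IKKβ triple KO against double KO (limma, adjusted p = 0.00137) and by 0.91 against RIPK3 triple KO (adjusted p = 0.00612). It was the 1 gene of the 4 called in each, beside 0.627% and 1.59% of all probe sets. Against double KO the list means overlapped, and Krt7 was at −0.07, Krt19 at 0.19 and Epcam at −0.58. Against RIPK3 triple KO the list means did not overlap, and these genes were at −0.24, −0.51 and −0.47. Array signals have no true zero, and the markers of thyroid follicle cells, 4 of 5 measured, had list means of 3.03 to 3.32 in all genotypes, below the array medians of 4.90 to 5.05. The part of these cell types in the Dio1 difference was not tested.

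The genes beside Dio1 on chromosome 4 differed less than Dio1, which was chosen for its pattern, so nothing is read from this contrast. The 5 nearest measured genes on each side, in the order of the RefSeq annotation, were Tceanc2, Tmem59, Ldlrad1, Lrrc42 and Hspb11 on one side and Yipf1, Ndc1, Glis1, Dmrtb1 and Lrp8 on the other. These 10 genes differed by −0.33 to 0.35 in RIPK3 triple KO minus double KO, where Dio1 differed by 3.29. By limma, 0 of the 10 passed the threshold in that comparison, beside 0.264% of all probe sets. Of the 10, 2 had an unadjusted p below 0.05, and the smallest adjusted p was 0.341. In the other 5 comparisons 0 of the 10 passed as well, beside 0.0197% to 2.38% of all probe sets. There 0 to 4 had an unadjusted p below 0.05, and the smallest adjusted p was 0.0584, in IKKβ triple KO against RIPK3 triple KO.

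**Figure D2:**
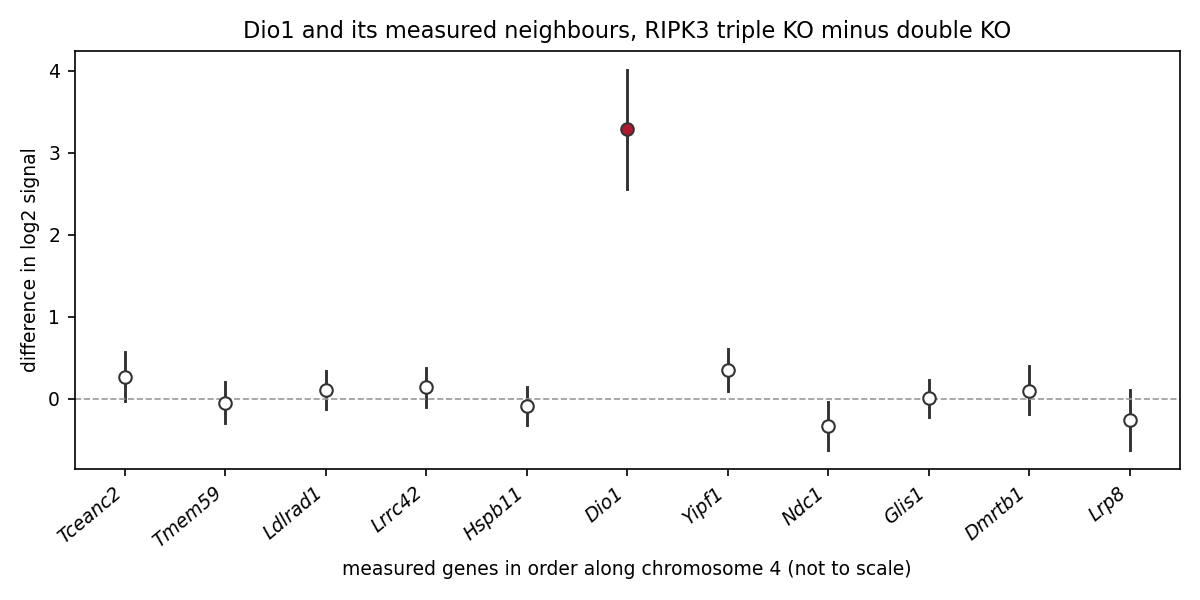
Difference in log2 signal, RIPK3 triple KO minus double KO (vertical axis), for Dio1 (filled) and the 5 nearest measured genes on each side in chromosomal order (horizontal axis, not to scale); points are differences of genotype means and lines their 95% intervals. The 10 neighbours lie between −0.33 and 0.35 and Dio1 at 3.29.

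Genes whose signal followed that of Dio1 over the 16 arrays were ranked by Pearson's r among 10449 genes with a mean above the median of all probe sets. The 8 highest were Cmtm8 at 0.85, the adenylate cyclase Adcy4 at 0.85, the hepatic cytochrome P450 Cyp2c70 at 0.82, the galactosyltransferase B3galt1 at 0.82, Tsc22d3, a glucocorticoid-induced gene, at 0.81, the mitochondrial leucyl-tRNA synthetase Lars2 at 0.79, Pafah2 at 0.79 and Zdhhc18 at 0.78. The 4 lowest were the matrix metalloproteinase Mmp14 at −0.90, the transcription factor Sp3 at −0.85, Ajuba at −0.83 and Ppp1r9a at −0.83. Cyp2c70, which makes muricholic acids in mouse liver, averaged 11.52 in RIPK3 triple KO, 10.88 in IKKβ triple KO, 10.83 in double KO and 11.08 in WT livers, the genotype order of Dio1. Mmp14 averaged 9.40 in RIPK3 triple KO, 9.68 in IKKβ triple KO, 9.86 in double KO and 9.71 in WT livers, in the opposite direction. The arrays share their genotypes, and within genotypes r with Dio1 fell to between 0.00, for Pafah2, and 0.53, for Adcy4, among the 8. Likeness is given as a description of these 16 arrays, and whether any of these genes lies near a targeted gene was not examined.

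**Figure D3:**
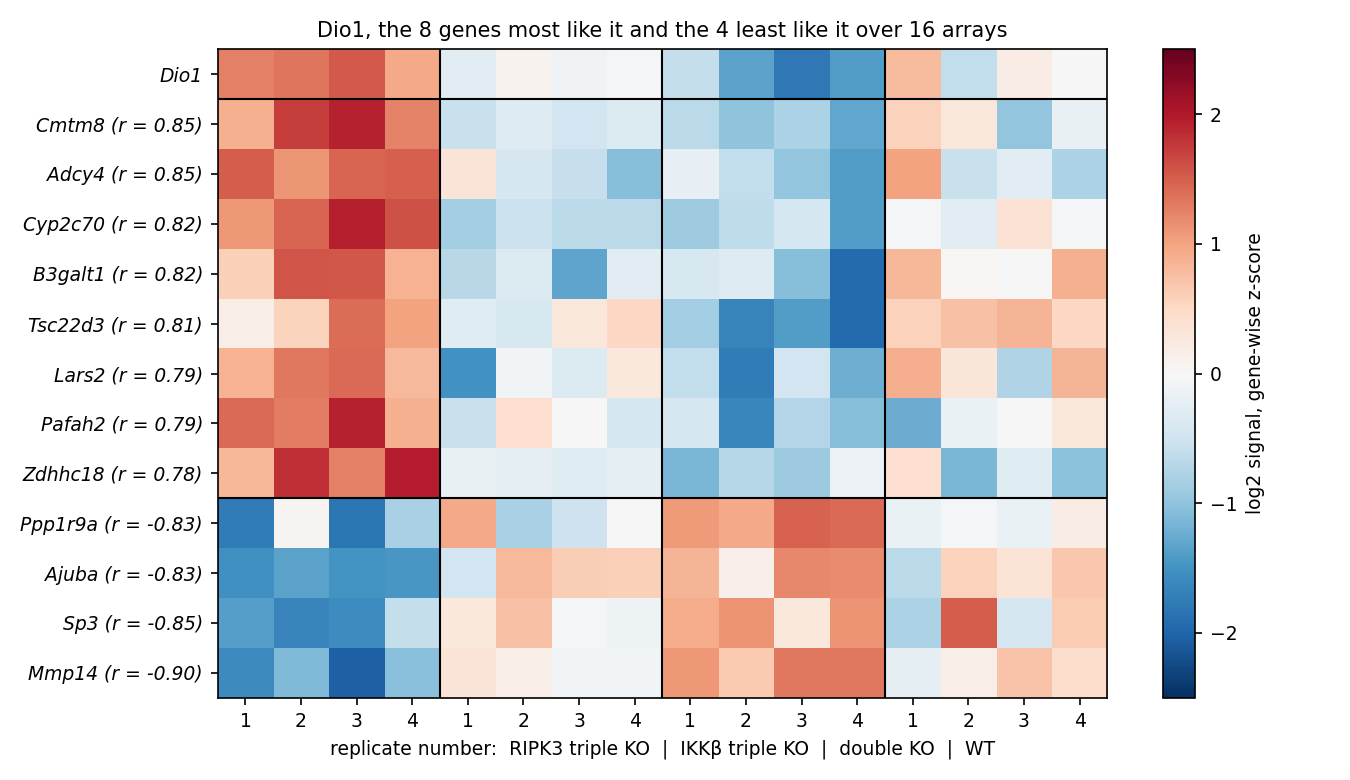
Log2 signal of Dio1, the 8 genes most like it and the 4 least like it (vertical axis, each with its r) in each of the 16 livers (horizontal axis, by genotype and replicate number); the colour is the gene's z-score over the livers. The 8 genes are high in RIPK3 triple KO and low in double KO livers for the most part, and the 4 genes down to Mmp14, with an r of −0.90, run the other way.

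Of the 5 other measured genes, 0 passed the adjusted threshold of 0.05 in any of the 6 comparisons by limma, and 3 of the 30 tests had an unadjusted p below 0.05. Over all probe sets, 0.264% passed in RIPK3 triple KO against double KO, 0.627% in IKKβ triple KO against double KO, 2.25% in double KO against WT, 2.38% in RIPK3 triple KO against WT, 0.0197% in IKKβ triple KO against WT and 1.59% in IKKβ triple KO against RIPK3 triple KO. The count of 0 is near these background shares. The share of all probe sets with an unadjusted p below 0.05 is not given. Nothing is read from such counts, for these genes or for the neighbours of Dio1. The median difference of the 5 was 0.12 in RIPK3 triple KO minus double KO, beside 0.00 for all probe sets, and −0.14 in double KO minus WT, beside −0.01. Both medians were smaller in size than the Dio1 differences there, from which nothing is read, because Dio1 was chosen for its pattern.

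Klf9, a transcription factor whose gene is induced by thyroid hormone and by glucocorticoids, came closest to the threshold. Its signal was 6.93, 6.83, 7.65 and 7.18 in RIPK3 triple KO livers, 7.50, 7.29, 6.80 and 6.93 in IKKβ triple KO livers, 7.22, 6.90, 6.57 and 6.34 in double KO livers, and 6.99, 7.75, 7.71 and 7.54 in WT livers. The lowest 2 livers were double KO replicates 4 and 3, and WT replicate 1, at 6.99, lay within the double KO range. In double KO minus WT the difference was −0.74 ± 0.23 (SE), with a 95% interval of −1.24 to −0.25, an unadjusted p of 0.00611 and an adjusted p of 0.129. Without WT replicate 1 it was −0.91 (adjusted p = 0.0541). In RIPK3 triple KO minus double KO it was 0.39 ± 0.23 (adjusted p = 0.604) and in IKKβ triple KO minus double KO 0.38 ± 0.23 (adjusted p = 0.708). The double KO mean of Klf9 was the lowest, as for Dio1, and on this probe set neither triple KO mean reached that of WT. A second, dimmer Klf9 probe set averaged 4.29 ± 0.30 in RIPK3 triple KO, 4.09 ± 0.21 in IKKβ triple KO, 3.98 ± 0.25 in double KO and 4.28 ± 0.25 in WT livers (SD, n = 4 each). There double KO minus WT was −0.29 (adjusted p = 0.481) and RIPK3 triple KO minus WT was 0.02.

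Hr encodes hairless, a corepressor that binds thyroid hormone receptors and whose gene is a hormone target in brain. Its signal was 4.46, 4.51, 4.65 and 4.94 in RIPK3 triple KO livers, 4.63, 4.45, 4.60 and 4.50 in IKKβ triple KO livers, 4.43, 4.55, 4.36 and 4.73 in double KO livers, and 4.76, 4.67, 4.77 and 4.43 in WT livers. The genotypes overlapped throughout, and the 6 differences lay between −0.14 and 0.12 with adjusted p from 0.656 to 0.981.

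Thrb encodes thyroid hormone receptor β, the main receptor of hepatocytes. Its signal was 7.73, 7.96, 7.96 and 7.81 in RIPK3 triple KO livers, 7.58, 7.76, 7.59 and 7.54 in IKKβ triple KO livers, 7.85, 7.77, 7.81 and 7.66 in double KO livers, and 7.50, 7.56, 7.77 and 7.82 in WT livers. RIPK3 triple KO livers were the highest on average and IKKβ triple KO livers the lowest. The difference was −0.25 ± 0.09 (SE) in IKKβ triple KO minus RIPK3 triple KO (unadjusted p = 0.0148, adjusted p = 0.199) and 0.20 ± 0.09 in RIPK3 triple KO minus WT (unadjusted p = 0.0392, adjusted p = 0.322; 0.15 without WT replicate 1, adjusted p = 0.482). The 4 other Thrb differences had adjusted p from 0.662 to 0.972.

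Slc16a10 encodes MCT10, a transporter of aromatic amino acids and of iodothyronines. Its signal was 6.13, 6.67, 6.56 and 7.11 in RIPK3 triple KO livers, 5.95, 6.49, 6.89 and 6.75 in IKKβ triple KO livers, 6.38, 6.15, 6.45 and 6.74 in double KO livers, and 6.49, 6.51, 6.25 and 6.38 in WT livers. The spread was widest in the triple KO genotypes, with SDs of 0.40 and 0.41 against 0.12 in WT livers, a contrast that was not tested. The 6 differences lay between −0.10 and 0.21, with an SE of 0.21 and adjusted p from 0.715 to 0.981.

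Ttr encodes transthyretin, the plasma carrier of thyroxine and of retinol-binding protein that hepatocytes secrete. Its signal was 12.74, 13.00, 13.01 and 12.93 in RIPK3 triple KO livers, 13.02, 12.91, 12.99 and 12.98 in IKKβ triple KO livers, 12.91, 12.98, 12.90 and 12.77 in double KO livers, and 12.98, 13.13, 13.03 and 13.04 in WT livers. In double KO minus WT, the difference was −0.15 ± 0.08 (SE), with a 95% interval of −0.32 to 0.01 and an adjusted p of 0.395. The 4 double KO livers lay below the lowest WT liver, though both round to 12.98 where they meet, and groups did not overlap at 9.25% of all probe sets in that comparison. Ttr stood near the top of the scale, on which the highest value of any probe set was 13.65.

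**Figure D4:**
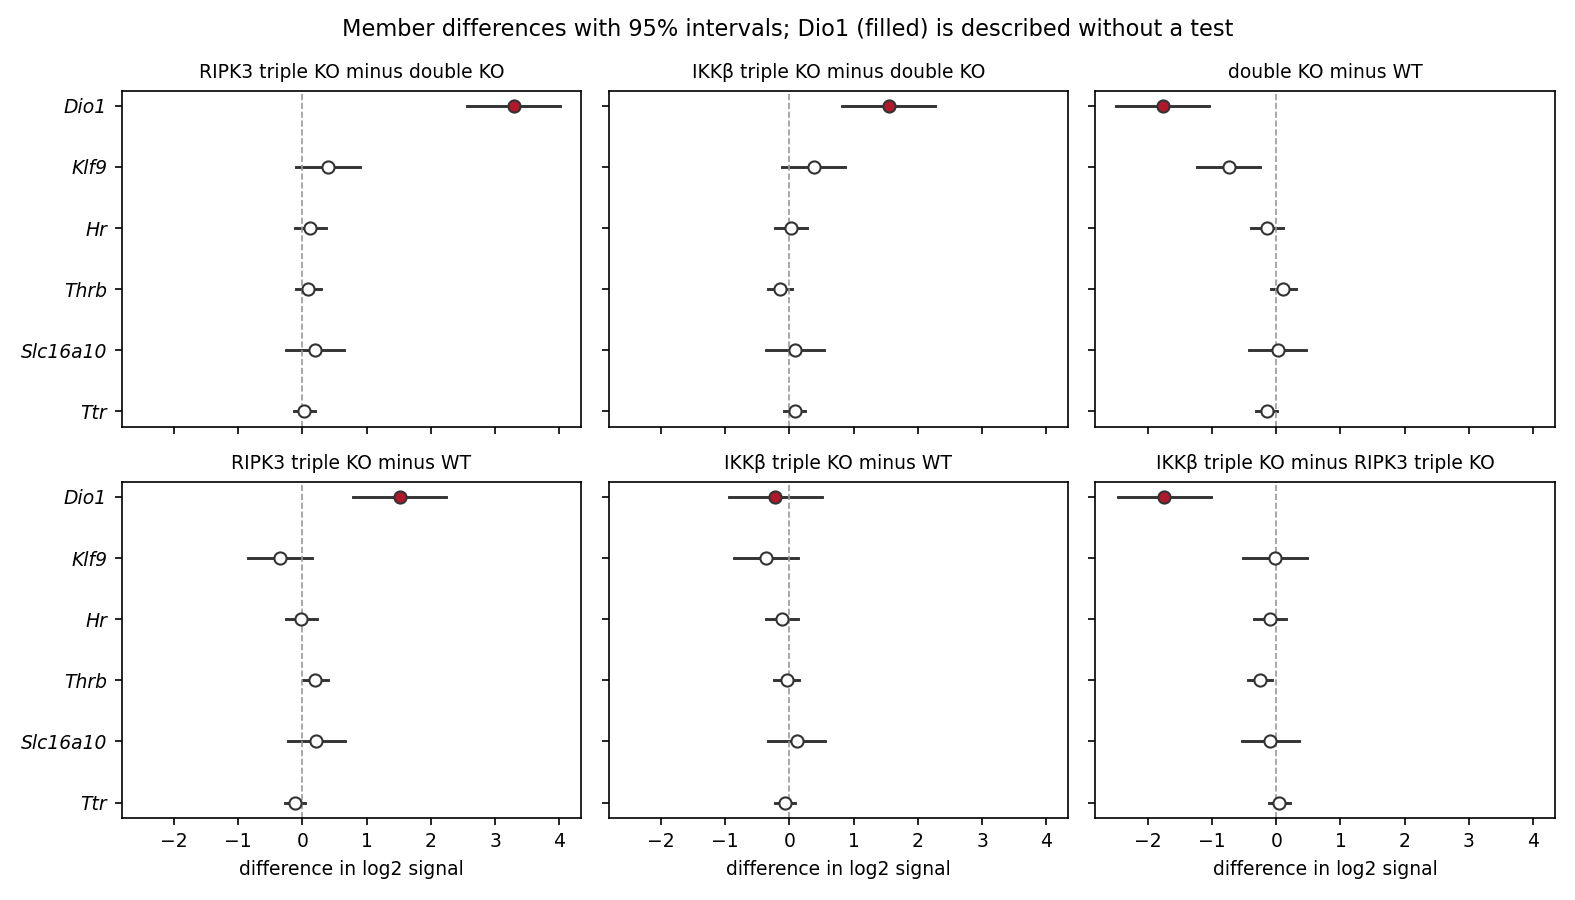
Difference in log2 signal with its 95% interval (horizontal axis) for each measured gene (vertical axis) in the 6 comparisons of genotypes. Dio1, drawn as a description, reaches 3.29 in RIPK3 triple KO minus double KO, while the 5 tested genes lie between −0.74 and 0.39.

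Across the 16 arrays the other genes followed Dio1 weakly, with r of 0.34 for Klf9, 0.27 for Thrb, 0.26 for Hr, 0.17 for Slc16a10 and 0.07 for Ttr. Within genotypes these values lay between −0.20 and 0.15. Ttr and Klf9 were the closest pair among them, at 0.66 over all arrays and 0.49 within genotypes. The gene most like Klf9 was Pgpep1, at 0.90, followed by Clybl, at 0.88. The gene most like Thrb was Trim24, a coregulator of nuclear receptors, at 0.89, followed by the hepatic phospholipase Pla2g12b, at 0.88. Ttr was most like Apoa1, the main protein of high-density lipoprotein, at 0.90, and Vkorc1, the vitamin K epoxide reductase, at 0.89. Hr was most like Cnnm3, at 0.90, and Fbrs, at 0.84, and Slc16a10 was most like Cd34, at 0.81, and Smdt1, at 0.80.

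The other genes of the pathway were taken from a list of 63, of which 56 had a one-symbol probe set. In double KO against WT, 4 of the 56 fell and 0 rose, beside 3.31% of all genes called, 2.25% of all probe sets called and 0.807% called lower. In IKKβ triple KO against double KO, 2 rose and 0 fell, beside 1.02% of all genes called, 0.627% of all probe sets called and 0.0731% called higher. By limma, 0 of the 56 passed in RIPK3 triple KO against double KO, the comparison with the highest Dio1 difference, and 0 in the 3 remaining comparisons. The median difference of the list lay between −0.04 and 0.04 in the 6 comparisons.

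By role, the transporters (9 measured), binding proteins (3), other deiodinases and clearance enzymes (5), selenoprotein synthesis factors (7), corepressors (4) and coactivators (8) had 0 calls in RIPK3 triple KO against double KO, in IKKβ triple KO against double KO and in double KO against WT. Dio2 and Dio3, the genes of the other deiodinases, are named here for their role and not by a rule. Dio2, which activates thyroxine, averaged 2.98 to 3.28 in the 4 genotypes, as low as the thyroid follicle markers, so its differences are not given. Dio3, which inactivates the hormone, was also dim, at averages of 3.66 to 3.88, and did not pass in any of these comparisons. Differences of selenoprotein synthesis genes, on whose products Dio1 depends for its selenocysteine, lay between −0.15 and 0.28 in RIPK3 triple KO minus double KO. The organic anion transporter gene Slco1a4 had the highest difference of the transporters there, 1.41, with an adjusted p of 0.269. Without double KO replicate 4, which at 4.65 was the lowest liver, it was 0.93. Among the targets Pdk4, a brake on pyruvate use, was at −0.64 with an adjusted p of 0.253.

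The 4 genes that fell in double KO against WT were Rxra, Rxrg, Srebf1 and Thrsp. Other genes of the same roles did not pass there: the third retinoid X receptor gene, Rxrb, was at −0.12, and the lipogenic targets Fasn, Acaca, Me1 and Scd1 were at −0.11, 0.18, 0.20 and 0.74, as named after their values were seen. Rxra, the main retinoid X receptor gene of liver, was at 9.20, 9.39, 9.44 and 9.38 in RIPK3 triple KO livers, 9.56, 9.46, 9.37 and 9.29 in IKKβ triple KO livers, 9.19, 9.23, 9.12 and 9.06 in double KO livers, and 9.57, 9.59, 9.62 and 9.72 in WT livers. Rxra fell by 0.47 in double KO against WT (limma, adjusted p = 0.0042). It did not pass in RIPK3 triple KO minus WT, at −0.27 (adjusted p = 0.1), or in IKKβ triple KO minus WT, at −0.20 (adjusted p = 0.754). The livers of double KO and those of RIPK3 triple KO were all below all WT livers. Over all probe sets, groups did not overlap at 9.25% in double KO against WT and 7.7% in RIPK3 triple KO against WT. Rxrg, a related receptor gene, fell by 0.68 in double KO against WT (adjusted p = 0.0269) and rose by 0.72 in IKKβ triple KO against double KO (adjusted p = 0.0404). Its signal was 4.97, 4.88, 5.14 and 4.77 in RIPK3 triple KO livers, 5.88, 5.63, 5.31 and 5.32 in IKKβ triple KO livers, 4.82, 4.97, 4.73 and 4.72 in double KO livers, and 5.19, 5.37, 5.56 and 5.86 in WT livers. The IKKβ triple KO and WT livers were thus above all double KO livers and all RIPK3 triple KO livers. Rxrg differed by −0.55 in RIPK3 triple KO minus WT and did not pass there (adjusted p = 0.0724). Groups did not overlap at 6.22% of all probe sets in IKKβ triple KO against double KO and 7.9% in IKKβ triple KO against RIPK3 triple KO. The call against WT was lost without double KO replicate 1, 3 or 4 or WT replicate 3 or 4 (adjusted p up to 0.0866). It was also lost in a model of these 2 groups alone (limma, adjusted p = 0.0669). The call against double KO held only without double KO replicate 2 and was lost without any other of the 8 arrays (adjusted p up to 0.13).

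Srebf1, which encodes the lipogenic transcription factor SREBP-1, was at 7.87, 8.51, 8.35 and 8.21 in RIPK3 triple KO livers, 8.68, 8.94, 8.85 and 8.66 in IKKβ triple KO livers, 7.62, 8.21, 7.89 and 7.80 in double KO livers, and 8.37, 8.87, 9.17 and 9.23 in WT livers. It fell by 1.03 in double KO against WT (limma, adjusted p = 0.00691), a call held with each array left out but lost in a model of these 2 groups alone (adjusted p = 0.0544), and rose by 0.90 in IKKβ triple KO against double KO (adjusted p = 0.038). The second call held without double KO replicate 2 and was lost without any other of the 8 arrays (adjusted p up to 0.151). Thrsp, the thyroid hormone responsive gene of fatty acid synthesis also called Spot 14, was at 5.35, 3.69, 4.14 and 3.77 in RIPK3 triple KO livers, 4.24, 4.75, 5.14 and 5.84 in IKKβ triple KO livers, 3.89, 3.68, 4.05 and 3.53 in double KO livers, and 4.98, 5.83, 5.57 and 5.65 in WT livers. It fell by 1.72 in double KO against WT (adjusted p = 0.019), a call lost without double KO replicate 1 or 4 or WT replicate 2, 3 or 4 (adjusted p up to 0.068). Thrsp was dim, at averages of 3.79 in double KO and 4.24 in RIPK3 triple KO livers, below the array medians of 4.90 to 5.05. Unlike Dio1, both genes were lower on average in RIPK3 triple KO than in IKKβ triple KO livers. In that comparison of the triple KO genotypes 0 pathway genes passed, the nearest being Rxrg at 0.60 (adjusted p = 0.0632) in IKKβ triple KO minus RIPK3 triple KO. Slco1a1, a transporter gene as dim as the thyroid follicle markers, came next (adjusted p = 0.0655), at averages of 2.52 in IKKβ triple KO and 3.25 in RIPK3 triple KO livers.

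Against WT, 0 pathway genes of either triple KO genotype passed the threshold with all arrays. Without WT replicate 1, Srebf1, at −0.86 (limma, adjusted p = 0.0112), and Rxrg, at −0.66 (adjusted p = 0.0318), passed in RIPK3 triple KO against WT, and Rxrg, at 0.60 (adjusted p = 0.0435), in IKKβ triple KO against RIPK3 triple KO. Without it, the 4 calls in double KO against WT and the 2 in IKKβ triple KO against double KO held. The smallest adjusted p in RIPK3 triple KO minus WT belonged to Slco1a1, which encodes an organic anion transporter (adjusted p = 0.0555) and whose averages of 3.25 in RIPK3 triple KO and 2.53 in WT livers are as low as the thyroid follicle markers, and to Tbl1xr1, a subunit of the corepressor complex, which differed by −0.35 (adjusted p = 0.0718). In IKKβ triple KO minus WT they belonged to Rxra, at −0.20 (adjusted p = 0.754), and to Bcl3, at 0.65 (adjusted p = 0.767).

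**Figure D5:**
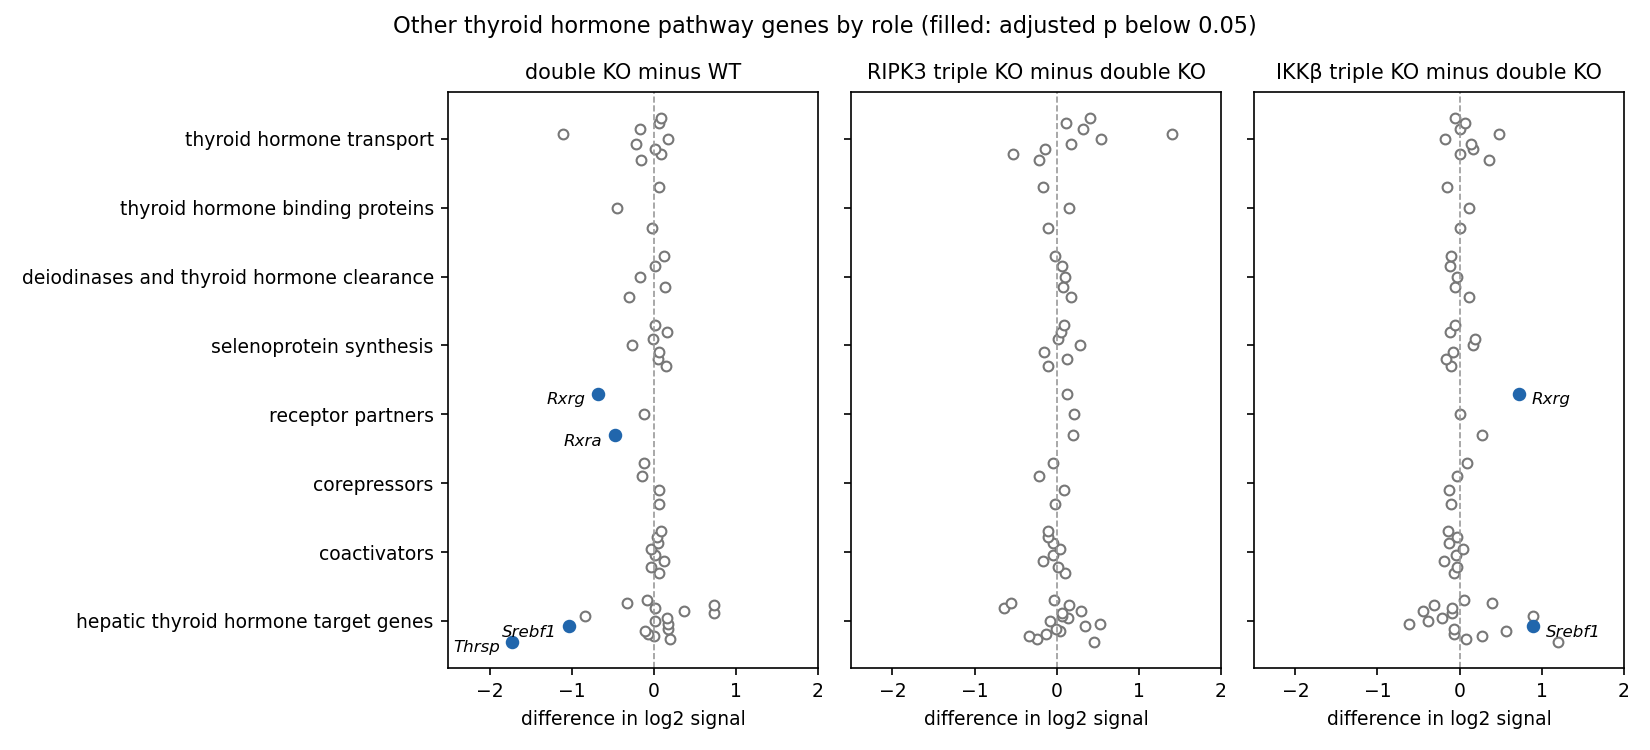
Difference in log2 signal (horizontal axis) of the 56 measured pathway genes, grouped by role (vertical axis), in double KO minus WT, RIPK3 triple KO minus double KO and IKKβ triple KO minus double KO; filled points have an adjusted p below 0.05. Rxra, Rxrg, Srebf1 and Thrsp are filled on the left of 0 in double KO minus WT, Rxrg and Srebf1 on the right in IKKβ triple KO minus double KO, and no point is filled in RIPK3 triple KO minus double KO.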

How the data were processed

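The deposited table holds log2 signals of 1-colour Affymetrix arrays that the authors made with RMA, per the submitters' processing notes. Neither its version nor the definition of its probe sets was given in the sources used here. The labels give an RNA integrity number above 8.0. Array medians lay between 4.90 and 5.05; 16 arrays limit the precision. Genotypes were compared by lmFit and eBayes of limma 3.58.1 (R 4.3.3; no trend, two-sided), as 4 means in 1 model of 16 arrays, without further normalisation or filter, and with the Benjamini-Hochberg method applied to all 35556 probe sets at 0.05. Every adjusted p is from this limma model. Litters are not labelled, so p-values measure the spread between these mice only. The model was tested on simulated data.

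The members and gene lists were chosen with earlier results of these data known. Named genes were the members, the targeted genes, the 8 most and 4 least like Dio1, the 2 most like each other member, the 5 neighbours on each side, and in each comparison up to 4 pathway genes past the threshold, or 2 where none passed. Likeness candidates left out predicted, Rik, clone-named, small RNA and chemosensory receptor genes. Replicate numbers did not pair the mice. Promoters and gene order came from RefSeq tables of GRCm38.p6, read with Python 3.11.15. Alternatives were an intensity trend, 2-group models, a dim-probe filter, quantile normalisation, centring, gene means, array weights, a replicate block, plate row as a random block and leaving out each array.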

Additional observations from a re-analysis of the deposited data

Results flagged for a closer look

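In the groups of 4 livers examined gene by gene, 2 of 60 held 1 liver far from the other 3, where chance alone gives about 1 in 20. Slco1a4, a transporter gene, was at 7.11 in IKKβ triple KO replicate 1, against 6.32 to 6.42 in the other livers of that genotype. Tbl1xr1, a corepressor complex gene, was at 7.93 in RIPK3 triple KO replicate 4, against 8.24 to 8.26 in the other livers of that genotype.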

How the results depend on the processing

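The count of 0 of 5 members past the threshold held under every alternative run, and of 510 member values 491 kept their direction and side, 19 changed sign and 0 crossed the threshold. The smallest adjusted p was 0.0512, for Klf9 in double KO minus WT (−0.81) with array weights. Sign changes outside the leave-outs were Hr in RIPK3 triple KO minus WT (0.02 with arrays centred) and Slc16a10 in IKKβ triple KO minus RIPK3 triple KO (0.01 with array weights). Leaving out single arrays gave −0.52 to 0.08 for Dio1 in IKKβ triple KO minus WT. For Hr it gave −0.02 to 0.10 in IKKβ triple KO minus double KO and −0.12 to 0.04 in RIPK3 triple KO minus WT, and for Klf9 −0.14 to 0.15 in IKKβ triple KO minus RIPK3 triple KO. For Slc16a10 it gave −0.08 to 0.12 in double KO minus WT, −0.03 to 0.28 in IKKβ triple KO minus double KO, −0.26 to 0.09 in IKKβ triple KO minus RIPK3 triple KO and −0.01 to 0.31 in IKKβ triple KO minus WT. For Thrb it gave −0.10 to 0.01 in IKKβ triple KO minus WT, and for Ttr −0.01 to 0.08 in IKKβ triple KO minus RIPK3 triple KO and −0.01 to 0.09 in RIPK3 triple KO minus double KO. Pathway calls in IKKβ triple KO against double KO were 1 instead of 2 with the trend, 2 groups or the replicate block, and 0 to 2 without single arrays. In double KO against WT they were 2 to 4 without single arrays, 2 without double KO replicate 1 or 4 or WT replicate 3 or 4. The Srebf1 and Rxrg calls there were lost with 2 groups only (adjusted p = 0.0544 and 0.0669). In IKKβ triple KO against RIPK3 triple KO they were 1 with array weights or 2 groups, 2 with gene means or the dim filter, and 0 to 1 without single arrays. In RIPK3 triple KO against WT they were 4 with array weights, 5 with gene means, 1 with centring, 2 groups, quantile normalisation or the replicate block, and 0 to 2 without single arrays. In RIPK3 triple KO against double KO they were 0 to 1, the 1 without RIPK3 triple KO replicate 4. The causes were not tested. Over all probe sets, 94 calls in RIPK3 triple KO against double KO became 40 with 2 groups and 62 with the replicate block, 223 in IKKβ triple KO against double KO became 109 with 2 groups, 509 with array weights and 345 with gene means, and 800 in double KO against WT became 458 with 2 groups and 1594 with array weights. Likewise 845 in RIPK3 triple KO against WT became 328 with 2 groups, 7 in IKKβ triple KO against WT became 1 with 2 groups, 13 with the dim filter, 20 with array weights and 28 with gene means, and 567 in IKKβ triple KO against RIPK3 triple KO became 232 with 2 groups and 875 with array weights. Centring moved the split in RIPK3 triple KO against double KO to 77 higher and 45 lower, from 47 and 47. Leaving out single arrays gave 39 (without double KO replicate 4) to 89 such calls in RIPK3 triple KO against double KO, 115 (without double KO replicate 1) to 312 in IKKβ triple KO against double KO, 420 (without double KO replicate 1) to 902 in double KO against WT, 425 (without WT replicate 3) to 1095 in RIPK3 triple KO against WT, 4 to 13 in IKKβ triple KO against WT, and 197 (without RIPK3 triple KO replicate 3) to 938 (without IKKβ triple KO replicate 1, 471 higher and 467 lower, in place of 179 and 388) in IKKβ triple KO against RIPK3 triple KO. Same-numbered livers correlated at −0.10 to 0.16 after subtraction of genotype means, and 3 of 16 livers correlated best with their own number. With the replicate block, Rxrg had an adjusted p of 0.109 in IKKβ triple KO against double KO and 0.0672 in double KO against WT. The number of arrays and probes with low signal, such as Hr, limit the size of difference that could be seen.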
